A study of Mus musculus with 8 samples.

Results

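Simple epithelial keratins are the intermediate filament proteins of hepatocytes and bile duct cells, and 7 of their genes were followed here, Krt7, Krt8, Krt18, Krt19, Krt20, Krt23 and Krt80, out of 54 keratin genes and 45706 gene rows in the deposited count table. The members were taken from a list of gene symbols and not from their values, although the list was drawn up with earlier results of these data known. Liver RNA was sequenced from C57BL/6 mice, with 1 library per mouse, from 4 animals labelled HuR KO and 4 labelled HuR WT. Elavl1 encodes HuR, which binds AU-rich and U-rich stretches of mRNAs. The sources used here do not give the part of the gene deleted, the cells in which it was deleted, or the age, sex and treatment of the animals, and KO and WT below mean the libraries that carry these labels.

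Keratin filaments are built from obligate pairs of a type I and a type II chain. Hepatocytes make one such pair, Krt8 (type II) with Krt18 (type I). Bile duct cells make the same pair and add Krt7 (type II) and Krt19 (type I), so that Krt7 and Krt19 serve as markers of the ducts and of the ductular reaction that follows liver injury, whereas Krt8 and Krt18 report on both cell types. Krt23, a type I keratin, is low in healthy liver and has been described as inducible by liver injury. Krt20 is a type I keratin of gut epithelium and urothelium, and Krt80 is a type II keratin of several other epithelia.

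The libraries held 18649618 to 31249286 gene counts each, and 14645 genes passed the low-count filter and were tested. Levels are given as CPM, read counts relative to a library size that was adjusted by the trimmed mean of M values (TMM), and as RPKM, which divides CPM by the exon length in kilobases, where genes are compared with each other. Elavl1 itself was at 50.02 ± 4.33 CPM in KO and 41.97 ± 6.41 CPM in WT libraries (SD, n = 4 each), and since the labels do not say which exons were deleted this gene count cannot check the genotype. Titles of the samples hold animal numbers of 98 to 100 for KO replicates 3 and 4 and WT replicate 3, and of 4 digits for the other 5 libraries, and what sets the number series apart was not given. On the first principal component the KO libraries lay at -14.6 or below, WT replicate 3 at 2.33 and the other WT libraries at 27.2 or above.

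The Krt7 and Krt8 genes lie on mm10 chromosome 15, as do Krt18 and Krt80, and Krt19, Krt20 and Krt23 lie on chromosome 11. Krt8 (101996711 to 102004342, minus strand) and Krt18 (102028216 to 102032026, plus strand) are neighbours, and Krt7 spans 101411043 to 101430313 on the plus strand and Krt80 101349571 to 101370125 on the minus strand. Krt19 spans 100140810 to 100148665, Krt20 99428403 to 99438150 and Krt23 99477974 to 99493137, all on the minus strand. All 7 are protein-coding genes. RefSeq sequence upstream of the RefSeq transcription start (build GRCm38.p6, the same assembly as mm10) was at hand for 5 of them, Krt7, Krt8, Krt18, Krt20 and Krt23. RefSeq starts Krt7 at 101412403, while the annotation used for the counts starts it at 101411043. The Krt7 window thus lies within the longer gene. The upstream sequence of the duct keratin Krt7 is shown beside those of the shared pair, 5′ to 3′ on the strand of the gene and without bases annotated as 5′ UTR. Capitals mark GC boxes.
Krt7, chr15:101412153-101412401, plus strand: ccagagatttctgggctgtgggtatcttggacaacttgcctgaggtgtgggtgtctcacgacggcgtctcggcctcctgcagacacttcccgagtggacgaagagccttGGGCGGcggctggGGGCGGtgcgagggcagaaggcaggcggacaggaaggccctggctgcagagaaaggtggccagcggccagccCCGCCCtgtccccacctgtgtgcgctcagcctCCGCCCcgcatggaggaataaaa
Krt8, chr15:102004483-102004592, minus strand: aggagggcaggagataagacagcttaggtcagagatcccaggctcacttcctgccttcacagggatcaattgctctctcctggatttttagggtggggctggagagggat
Krt18, chr15:102027966-102028179, plus strand: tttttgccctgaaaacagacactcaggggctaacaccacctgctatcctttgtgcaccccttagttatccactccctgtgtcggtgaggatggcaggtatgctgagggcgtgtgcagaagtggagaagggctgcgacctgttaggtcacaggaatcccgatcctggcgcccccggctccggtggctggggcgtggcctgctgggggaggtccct

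Over the full windows of 250 bases, Krt7 held 4 GC boxes (GGGCGG on either strand) and had 66.0% G and C, against a median of 52.4% over 32536 upstream windows of all genes in the table. At least 1 GC box stood in 33.0% of those windows. G and C made up 58.0% of the window of Krt8, 60.4% of Krt18, 52.8% of Krt23 and 48.0% of Krt20. The windows of Krt8, Krt18 and Krt23 held none of the 4 motifs searched on both strands, which were the GC box, the TATA box (TATAAA, in 12.3% of all windows), the AP-1 motif (TGANTCA, in 6.73%) and the TEAD motif (GGAATG, in 12.6%). That of Krt20 held 1 TATA box and 3 TEAD motifs, a pair of which share bases with each other. No match of one motif overlapped a match of another. Such matches describe letters and not bound sites.

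Because HuR binds AU-rich stretches, the pentamer ATTTA was counted in the 3′ UTR of 1 coding transcript per gene in GENCODE M21 (GRCm38). None stood in the 3′ UTRs of Krt8 (242 bases), Krt18 (66 bases), Krt19 (103 bases), Krt23 (223 bases) or Krt80 (1600 bases). Among 3′ UTRs between 80% and 125% of the length, 30.5%, 7.33%, 14.5%, 28.2% and 87.5% held at least 1. Krt20 had 2 in 578 bases, where 56.9% of 3′ UTRs of like length held at least 1. Krt7 had 13 in 2648 bases, where 94.9% of 3′ UTRs of like length held at least 1. Some of the Krt7 matches run together as overlapping repeats, and 1 window of 25 bases from each of the 2 longest runs is shown with its middle ATTTA in capitals.
Krt7 3′ UTR, chr15:101429964-101429988, plus strand: aaaaagatttATTTAtttattctat
Krt7 3′ UTR, chr15:101430051-101430075, plus strand: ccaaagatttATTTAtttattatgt
RefSeq ends the Krt7 gene at 101427806, and 0 of the 13 matches lie within that shorter gene. Reads were summed per gene in the deposited table, so which 3′ end the Krt7 reads came from was not tested.

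The duct keratins Krt7 and Krt19 rose in the libraries labelled KO, by 4.85-fold and 3.64-fold, while the keratins that ducts share with hepatocytes, Krt8 and Krt18, were not called and stood at 1.11-fold and 1.26-fold of the WT level. Krt23 lay between them at 1.96-fold and was not called over the 8 libraries. Calls are those of edgeR's quasi-likelihood test at a Benjamini-Hochberg adjusted p under 0.05, taken over all 14645 genes. Of the 7 keratins, 2 were called higher, 0 were called lower, 3 were tested and not called, and 2 did not reach the low-count filter. Among all genes tested, 2.32% were called higher, 1.37% lower and 3.69% in either direction. At an unadjusted p under 0.05, edgeR gave 4 keratins higher and 0 lower, where 9.2% of all genes tested were higher and 8.84% lower at that threshold. DESeq2 called 3 higher and 0 lower where 3.54% of genes were called higher, and limma-voom called 2 higher and 0 lower where 2.21% were. In bulk liver RNA, more cells of a type and more RNA per cell cannot be told apart.

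**Figure D1:**
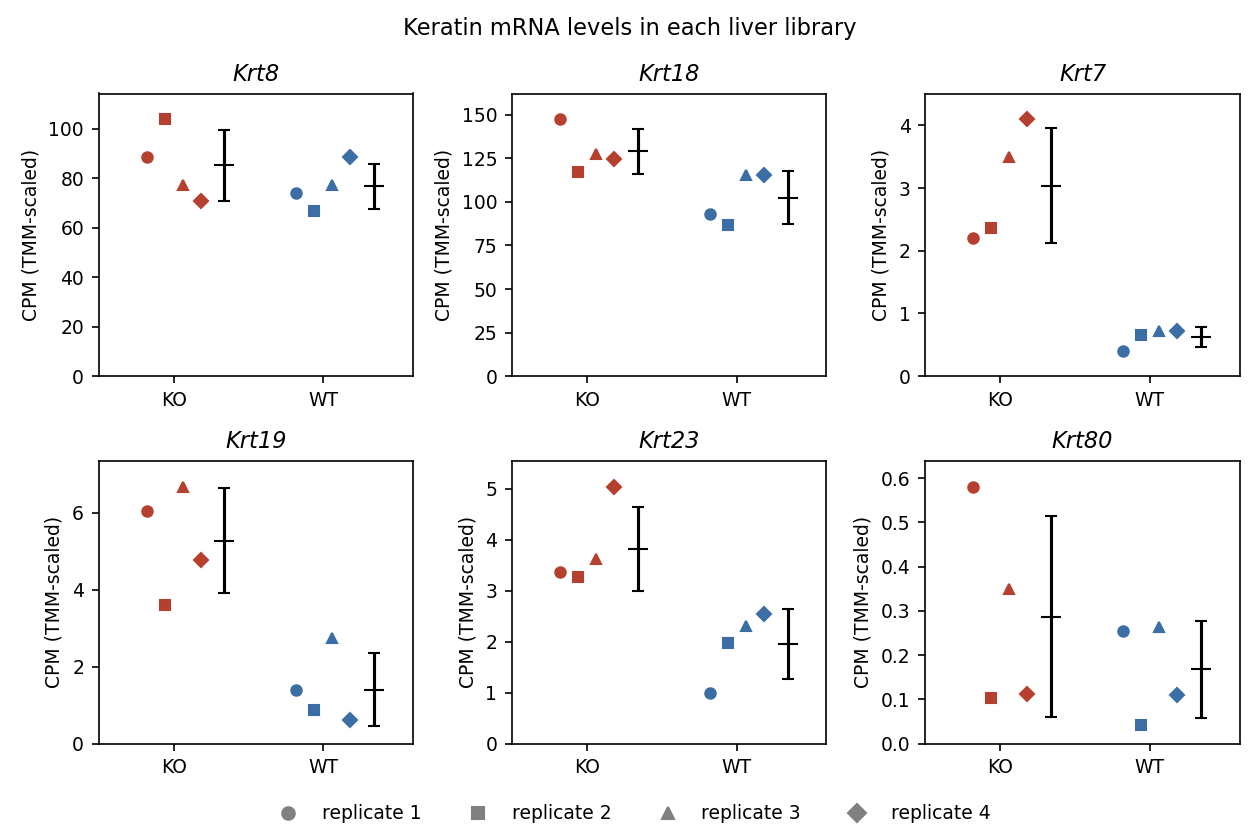
Level of each keratin in TMM-scaled CPM (y axis from 0, a scale of its own per gene) in the KO and WT libraries, 1 point per library with the mean ± SD (n = 4 each) in black. For Krt7, Krt19, Krt23 and Krt18 every KO library lay above every WT library, for Krt8 and Krt80 the groups overlapped, and Krt20 is not drawn because it had 0 counts.

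Krt7, the type II keratin of bile ducts, was at 2.21, 2.36, 3.50 and 4.10 CPM in KO replicates 1 to 4 and at 0.401, 0.658, 0.727 and 0.721 CPM in WT replicates 1 to 4. The lowest KO library was thus above the highest WT library, and the highest KO values were those of replicates 3 and 4, the animals numbered 98 and 99. The group means were 3.04 ± 0.911 CPM in KO and 0.627 ± 0.154 CPM in WT libraries (SD, n = 4 each). On the log2 scale the difference was 2.28 (SE 0.33, edgeR adjusted p = 0.00194), and the 95% interval, not adjusted for the number of genes, ran from 2.98-fold to 7.88-fold. These levels rest on 57 to 109 reads per KO library and 11 to 22 reads per WT library. Krt7 was called in each of the 8 fits that left out 1 library, with log2 fold changes from 2.10 to 2.40. Within the 4-digit series the log2 difference was 1.96, and within the 98 to 100 series, which has a single WT library and so no test, it was 2.27.

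Krt19, the type I keratin of bile ducts and known for lacking most of the tail domain of other keratins, was at 6.04, 3.61, 6.68 and 4.77 CPM in KO replicates 1 to 4 and at 1.39, 0.863, 2.74 and 0.610 CPM in WT replicates 1 to 4. The groups did not overlap, with 3.61 CPM in KO replicate 2, the lowest of its group, and 2.74 CPM in WT replicate 3, the highest of its group. Mean levels were 5.28 ± 1.37 CPM in KO and 1.40 ± 0.951 CPM in WT libraries (SD, n = 4 each). On the log2 scale the difference was 1.87 (SE 0.38, edgeR adjusted p = 0.0194), and its 95% interval ran from 2.05-fold to 6.47-fold. The call was lost, with adjusted p from 0.0509 to 0.0683, when KO replicate 1, 3 or 4 or WT replicate 1 or 2 was left out, and without WT replicate 3 the log2 fold change was 2.43 (adjusted p = 0.0005). Within the 4-digit series the log2 difference was 2.30 (edgeR adjusted p = 0.00462), and within the 98 to 100 series it was 1.02. A term for this difference between the series was not called (-1.23, SE 0.57, edgeR unadjusted p = 0.0471, adjusted p = 0.768).

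Krt8, the type II chain of the hepatocyte pair, was at 88.6, 104, 77.4 and 70.8 CPM in KO replicates 1 to 4 and at 74.2, 66.6, 77.3 and 88.7 CPM in WT replicates 1 to 4. The groups overlapped, and WT replicate 4 had a higher level than 3 of the KO libraries. The log2 fold change was 0.15 (SE 0.12, edgeR adjusted p = 0.566), and its 95% interval of 0.927-fold to 1.33-fold leaves out a change of the size seen for Krt7 or Krt19. This holds for the whole-liver level of Krt8, which both hepatocytes and duct cells make. A change in duct cells alone cannot be read from it. The log2 difference was 0.34 in the 4-digit series and had the other sign in the 98 to 100 series, at -0.062.

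Krt18, the type I partner of Krt8, was at 147, 117, 127 and 125 CPM in KO replicates 1 to 4 and at 92.8, 86.6, 116 and 115 CPM in WT replicates 1 to 4. Every KO library lay above every WT library, though KO replicate 2 and WT replicate 3 were close at 117.3 and 115.5 CPM. The log2 fold change of 0.33 (SE 0.11) did not pass the test over 8 libraries (edgeR adjusted p = 0.126, 95% interval from 1.06-fold to 1.49-fold). It passed without WT replicate 3 (log2 fold change 0.40, edgeR adjusted p = 0.0431), a fit in which 4.75% of genes were called higher. By number series, the log2 difference was 0.43 in the 4-digit animals and 0.12 in the others.

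Krt23, the injury-associated type I keratin, was at 3.37, 3.26, 3.61 and 5.04 CPM in KO replicates 1 to 4 and at 0.984, 1.97, 2.31 and 2.55 CPM in WT replicates 1 to 4. The groups did not overlap, and KO replicate 4 was the highest library and WT replicate 1 the lowest. The log2 fold change was 0.97 (SE 0.29, 95% interval from 1.28-fold to 3.01-fold), and edgeR did not call it over the 8 libraries (adjusted p = 0.0781). The call was made by DESeq2 (adjusted p = 0.0307), by edgeR with no low-count filter (adjusted p = 0.0292) and by edgeR without WT replicate 3 (adjusted p = 0.0465). By number series, the log2 difference was 0.87 in the 4-digit animals and 0.86 in the others. Together with Krt7, Krt18 and Krt19 this makes 4 of the 7 keratins in which every KO library lay above every WT library, against 6.19% of all genes tested, and in 0 of the 7 every KO library lay below every WT library, against 5.01%.

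Krt80 was counted 15, 3, 9 and 3 times in KO replicates 1 to 4 and 7, 1, 8 and 2 times in WT replicates 1 to 4, too few to be tested, and the groups overlapped. Krt20 had 0 counts in all 8 libraries. A count of 0 allows a level of up to 0.0145 CPM over the 8 libraries together, taken as 3 counts and covering counting error only, so Krt20 was not detectable at this depth.

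**Figure D2:**
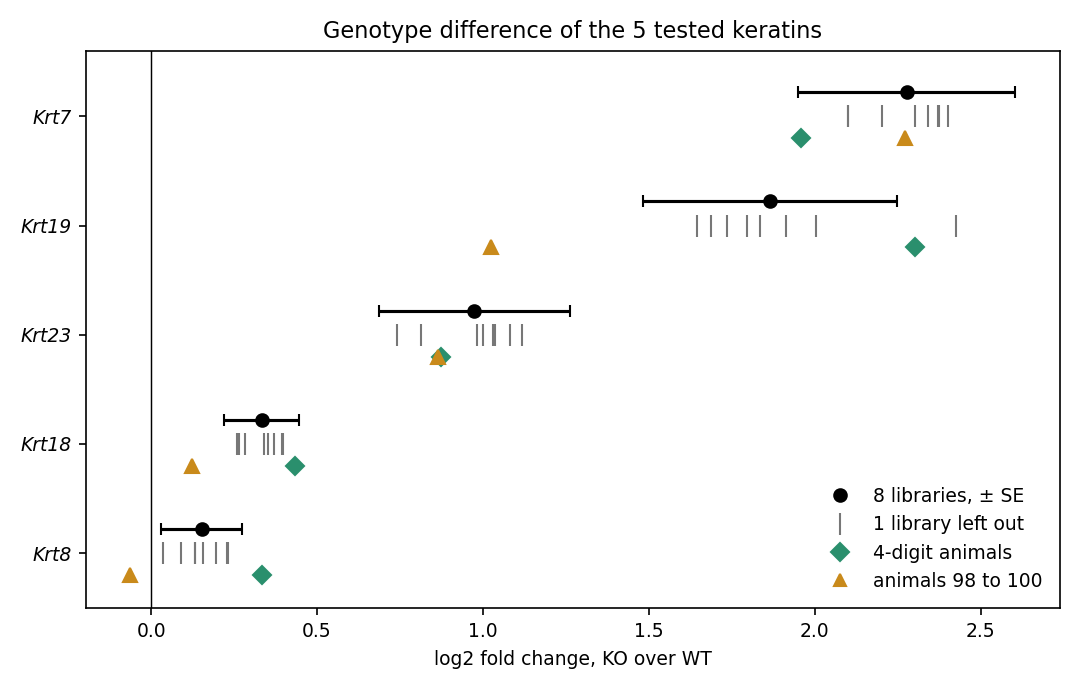
Log2 fold change, KO over WT, of the 5 keratins that were tested: black points with bars give the fit to 8 libraries ± SE, grey ticks the fits with 1 library left out, green diamonds the animals with 4-digit numbers and orange triangles those numbered 98 to 100. Krt7 and Krt19 lie apart from Krt8 and Krt18 in the fits to 8 libraries, at 2.28 and 1.87 against 0.15 and 0.33, and the series of animal numbers lie farthest apart for Krt19.

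Per length, the order of the keratins was led by the hepatocyte pair in both groups. Krt18 was at 92.2 ± 9.23 RPKM in KO and 73.2 ± 10.7 RPKM in WT libraries, and Krt8 at 47.2 ± 8.01 RPKM in KO and 42.5 ± 5.08 RPKM in WT libraries (SD, n = 4 each). Krt19 followed in KO libraries at 2.84 ± 0.736 RPKM and Krt23 at 2.44 ± 0.528 RPKM, a difference within their spread. In WT libraries these genes were at 0.755 ± 0.513 RPKM for Krt19 and 1.25 ± 0.441 RPKM for Krt23, again with overlapping spread and in the other order. Krt7 was at 0.431 ± 0.129 RPKM in KO and 0.0888 ± 0.0218 RPKM in WT libraries, and Krt80 at 0.162 ± 0.128 RPKM in KO and 0.0946 ± 0.0620 RPKM in WT libraries. The WT means of Krt7 and Krt80 thus did not differ beyond their spread. The Krt7 value is divided by 7055 exon bases, a sum that includes the long 3′ end described above and exons of non-coding transcripts, against 1400 to 1927 bases for the other 6 genes, so its RPKM is understated if its reads come from a shorter mRNA.

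The duct keratins were also set against the shared pair by ratios of counts within each library, which need no scaling between libraries, for 6 ratios in all. These use the same counts as the fold changes above, so they are not independent of them. They compare whole-liver levels and not those within duct cells. Krt7 reads amounted to 2.51%, 2.29%, 4.54% and 5.82% of Krt8 reads in KO replicates 1 to 4, and to 0.565%, 1.02%, 0.961% and 0.844% in WT replicates 1 to 4. The ratio was higher in 4 of 4 KO libraries than in any WT library, by 2.09 on the log2 scale (SE 0.38). Krt19 reads amounted to 4.11%, 3.09%, 5.27% and 3.85% of Krt18 reads in KO replicates 1 to 4, and to 1.51%, 1.02%, 2.39% and 0.554% in WT replicates 1 to 4. This ratio too was higher in 4 of 4 KO libraries than in any WT library, by 1.74 on the log2 scale (SE 0.47). For both ratios the exact two-sided permutation p was 0.0286, the smallest that 4 against 4 libraries allow, and adjusted over the 6 ratios it was 0.0857, which does not pass 0.05.

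The other ratios overlapped between the groups. Krt8 to Krt18, the partners of the hepatocyte pair, ranged from 0.568 to 0.885 in KO and from 0.669 to 0.799 in WT libraries, with a log2 difference of -0.20 (SE 0.16, exact permutation p = 0.286). Krt7 to Krt19, the duct pair, ranged from 0.367 to 0.859 in KO and from 0.270 to 1.17 in WT libraries, with a log2 difference of 0.15 (SE 0.58, exact permutation p = 0.8286). The biliary adhesion molecule gene Epcam rose 4.12-fold in the libraries labelled KO, to 8.01 ± 1.54 CPM against 1.91 ± 0.790 CPM in WT libraries (SD, n = 4 each, edgeR adjusted p = 0.000902). Relative to Epcam, Krt7 ranged from 0.302 to 0.448 in KO and from 0.228 to 0.541 in WT libraries (log2 difference 0.12, SE 0.34, exact permutation p = 0.743). Krt19 relative to Epcam ranged from 0.461 to 1.03 in KO and from 0.404 to 0.903 in WT libraries (log2 difference -0.03, SE 0.36, exact permutation p = 0.943). Adjusted over the 6 ratios, these 4 p-values ranged from 0.571 to 0.943, and the errors leave room for differences in either direction.

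**Figure D3:**
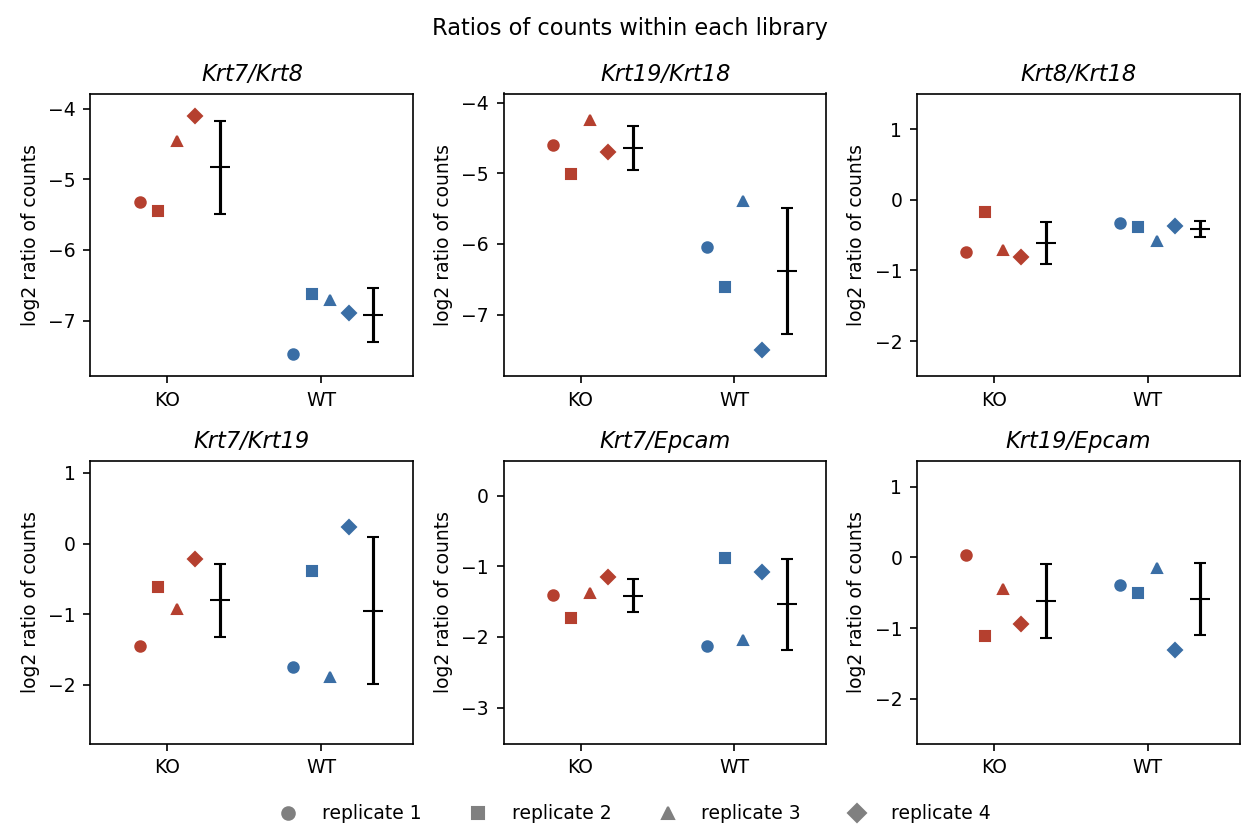
Log2 ratio of read counts within each library for 6 gene pairs (every y axis spans the same number of log2 units), 1 point per library with the mean ± SD (n = 4 each) in black, KO left and WT right. Krt7/Krt8 and Krt19/Krt18 separate the groups, and the ratios of Krt8 to Krt18, Krt7 to Krt19, and Krt7 and Krt19 to Epcam overlap.

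Markers of bile duct cells other than keratins moved with Krt7 and Krt19. Of 16 such genes, 14 were tested, 12 were called higher in KO and 0 lower, against 2.32% higher and 1.37% lower over all genes tested. Their median, with the 2 not called included, was 1.99 on the log2 scale, against -0.005 over all genes tested. Pkhd1, the gene of the ciliary protein fibrocystin, rose 2.78-fold and Tspan8, a tetraspanin, 8.17-fold, and Cd24a and Epcam rose 3.21-fold and 4.12-fold (edgeR adjusted p from 0.000109 to 0.000902). None of the 16 was at 0 in all libraries. Summed over the list, the level was 305, 297, 404 and 419 CPM in KO replicates 1 to 4 and 139, 116, 162 and 139 CPM in WT replicates 1 to 4. The summed level was highest in KO replicates 3 and 4, as was Krt7, whereas Krt19 was highest in KO replicates 3 and 1. Spp1 weighs most in this sum. Its mean of 166 CPM in KO and 43.1 CPM in WT libraries stood against list means of 356 and 139 CPM. In WT libraries the sum was highest in replicate 3, as were Krt7 and Krt19. The part of duct cell number in the rise of Krt7 and Krt19 was not tested.

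Hepatocyte markers were not called, and neither were Krt8 and Krt18, though both keratins had positive log2 fold changes, at 0.15 and 0.33. Of 12 listed hepatocyte genes 11 matched the table and were tested by edgeR, and 0 rose and 0 fell. At an unadjusted p under 0.05 edgeR gave 0 of these hepatocyte genes higher and 1 lower (9.2% higher and 8.84% lower over all genes tested), and DESeq2 and limma-voom made 0 calls. Their median log2 fold change was -0.12, and Cyp2e1 and Serpina1c had the smallest p, at -0.32 and -0.14. Alb, the defining transcript of hepatocytes, was at 95221 ± 8709 CPM in KO and 104490 ± 7247 CPM in WT libraries.

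Mesothelial cells of the liver capsule also make Krt7, Krt8, Krt18 and Krt19. Of 8 mesothelium markers 7 matched the table, 5 were tested and 1 rose, Gpm6a, a membrane glycoprotein, at 2.18-fold (4.35 ± 0.724 CPM in KO and 1.98 ± 0.572 CPM in WT libraries, edgeR adjusted p = 0.0254). Among all genes tested 2.32% were called higher and 1.37% lower. Over the 5 tested markers, 4 log2 fold changes were positive, with a median of 0.31 and a range from -0.02 to 1.13. The defining markers Msln and Upk3b lay nearest 0 among these, at 0.03 and -0.02, and were not called. The list's summed level ranged from 5.41 to 10.2 CPM in KO and from 3.0003 to 5.36 CPM in WT libraries, none of the 7 genes was at 0 in all libraries, and its part in the keratin result was not tested. Gpm6a was the largest part of this sum. Its mean of 4.35 CPM in KO and 1.98 CPM in WT libraries stood against list means of 7.45 and 4.59 CPM. The sum was 10.2, 5.41, 8.16 and 6.05 CPM in KO replicates 1 to 4 and 5.36, 3.0003, 5.12 and 4.88 CPM in WT replicates 1 to 4. In each group it was highest in replicates 1 and 3, as was Krt19, whereas Krt7 was lowest in replicate 1 of each group.

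Markers of other epithelia were looked at in the same way. Of 8 intestinal markers 3 were tested, 1 rose and 1 fell, against 2.32% called higher and 1.37% lower over all genes tested. Vil1, the gene of the microvillus protein villin, which bile duct cells also make, rose 11.6-fold (1.78 ± 1.32 CPM in KO and 0.149 ± 0.131 CPM in WT libraries), and Lgals4 fell 1.89-fold (edgeR adjusted p = 0.0161 and 0.0052). Limma-voom did not call Vil1. Cdx1 and Reg3g had 0 counts. The summed level of this list ranged from 73.8 to 86.3 CPM in KO and from 83.9 to 149 CPM in WT libraries, most of it from Fabp2 and Lgals4. Pancreatic acinar markers summed to at most 0.232 CPM in KO and 0.363 CPM in WT libraries, with 3 of 6 genes at 0 and none tested. Epidermal markers summed to at most 2.21 CPM in KO and 2.15 CPM in WT libraries, with 4 of 8 genes at 0, among them Krt1 and Krt5. The 2 of these that were tested by edgeR, Lor and Krt10, were not called by it at an adjusted or unadjusted p, nor by DESeq2 or limma-voom.

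Of the 47 keratin genes outside the list, 38 had 0 counts in all libraries, 1 was tested and 0 were called by edgeR, DESeq2 or limma-voom, or at an unadjusted p under 0.05. The 1 tested was Krt10, a type I keratin best known from epidermis, with 1.16 ± 0.421 CPM in KO and 1.29 ± 0.184 CPM in WT libraries (log2 fold change -0.15, SE 0.34). After it Krt79 had the most reads, 36 over the 8 libraries.

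Keratin filaments are anchored to desmosomes by plakins and armadillo proteins. Of 16 genes listed for these and related linkers 15 matched and were tested by edgeR, 2 rose, 0 fell and 13 were not called. Over all genes tested 2.32% were called higher and 1.37% lower. At an unadjusted p under 0.05, edgeR gave 4 higher and 2 lower, against 9.2% and 8.84% of all genes tested. DESeq2 called 2 higher and 1 lower, where 564 of 15919 genes were called higher and 436 lower. Limma-voom called 2 higher and 0 lower, where 324 of 14645 genes were called higher and 181 lower. The median over the 15 was 0.055 on the log2 scale. Both that edgeR called higher encode plakophilins, armadillo proteins of the desmosomal plaque. Pkp3 was at 2.07 ± 0.299 CPM in KO and 0.568 ± 0.150 CPM in WT libraries (3.60-fold, edgeR adjusted p = 0.00648) and Pkp1 at 1.999 ± 0.561 CPM in KO and 0.673 ± 0.357 CPM in WT libraries (2.98-fold, edgeR adjusted p = 0.0483). Of the abundant linkers of the list, the desmoplakin gene Dsp had a log2 fold change of -0.01 and the plectin gene Plec of 0.01, and neither was called.

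Other intermediate filament genes were not called. Of 10 listed genes 8 were tested by edgeR, 0 rose and 0 fell, 3 were higher at an unadjusted p under 0.05, against 9.2% of all genes tested, and DESeq2 and limma-voom called 0. The median log2 fold change was 0.27 and all 8 tested genes had a positive value, from 0.07 to 0.54. Des, the gene of the muscle and stellate cell filament desmin, was at 6.45 ± 0.517 CPM in KO and 4.42 ± 0.554 CPM in WT libraries (edgeR adjusted p = 0.0902), and Vim, the mesenchymal vimentin gene, at 34.2 ± 4.89 CPM in KO and 26.5 ± 4.07 CPM in WT libraries (edgeR adjusted p = 0.145).

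Genes whose products fold, modify or accompany keratins, or gather with them in Mallory-Denk inclusions, were listed as a further group. Of 18 listed genes 17 were tested, 0 rose, 1 fell and 16 were not called, against 2.32% higher and 1.37% lower over all genes tested. Their median was 0.001 on the log2 scale. The 1 that fell was Ywhaz, the gene of a phosphoprotein-binding adaptor of a family known to bind Krt18, at 38.4 ± 1.59 CPM in KO and 53.2 ± 4.84 CPM in WT libraries (log2 fold change -0.47, SE 0.09, edgeR adjusted p = 0.0106). Sqstm1, the gene of the inclusion protein p62, had a log2 fold change of 0.03.

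**Figure D4:**
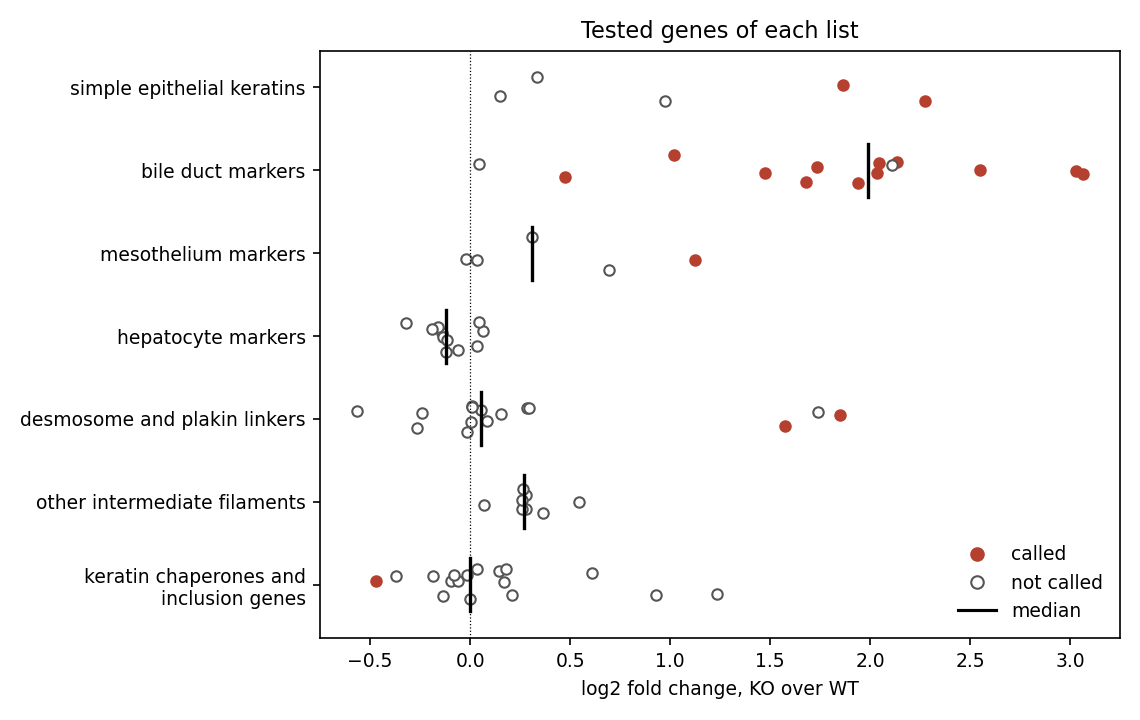
Log2 fold change, KO over WT, of the tested genes of each list, filled where called at an edgeR adjusted p under 0.05 and open where not, with the median of each list other than the keratins as a black bar. Bile duct markers lie around 1.99, with Krt7 and Krt19 at 2.28 and 1.87. Mesothelium and hepatocyte markers, linkers, other filaments and chaperones have medians between -0.12 and 0.31.

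The genes with the most similar profile over the 8 libraries were found by the root-mean-square difference between centred log2 CPM, among 11770 tested genes with a mean log2 CPM above 0. For Krt7 they were Wnk2, a kinase gene, at 0.24 log2 units, Dcdc2a, a doublecortin-domain gene, at 0.25, and Selenbp2, a selenium-binding protein gene, at 0.29, where Krt7 itself ranged over 3.13 log2 units. For Krt19 they were the actin-bundling gene Pls1 at 0.26, Bicc1, an RNA-binding protein gene that also stands on the bile duct list, at 0.35, and the anion exchanger gene Slc4a3 at 0.36, with a range of 3.30 for Krt19. Krt8 and Krt18 varied over 0.64 and 0.77 log2 units. The nearest genes to Krt8 were Ttc1, Lamtor2 and Mrpl16, at 0.05, 0.06 and 0.07, and those to Krt18 were Calm3, Naprt and Nostrin, at 0.05 each. No gene was nearest to more than 1 of the 4 keratins.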

How the data were processed

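Liver RNA of 8 mice was enriched for mRNA and made into directional libraries, per the labels' protocols. The deposited values are raw read counts per gene, which the authors made with GSNAP and featureCounts 1.5.1 on mm10, per the submitters' processing notes. Per the file headers they used the Ensembl 81 annotation, strand setting 2 and a minimum mapping quality of 1, with no option for multi-mapping reads. Such reads are left out, so genes with near-identical copies, such as Krt8 with its processed pseudogene, may be undercounted. The 92 spike-in rows held 0 counts and were not used. Symbols matched 45143 of 45706 gene rows.

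Groups follow the sample titles. No pair of libraries of a group agreed within sampling noise, with a smallest chi-square per degree of freedom of 16.7. Counts were tested in R 4.3.3 with edgeR 4.0.16 (filterByExpr with a minimum count of 10, TMM, glmQLFit with robust estimation, glmQLFTest, Benjamini-Hochberg adjustment over all genes tested). The SE is the log2 fold change over the square root of F. Ratios are log2 of counts plus 0.5 and were compared by exact permutation tests, two-sided by the size of the difference. The edgeR step and the permutation step were tested on simulated data. DESeq2 1.42.0 and limma 3.58.1 (voom), other scalings and filters, the number series and leaving out libraries were alternatives, and a term for the difference between number series was added after seeing the data.

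The members, the gene lists and the rules were chosen with earlier results of these data known. Genes named from a list are its called members in order of p, up to 4, or else the 2 with the smallest p. The 3 nearest profiles per gene were named for Krt7, Krt8, Krt18 and Krt19. Further genes given beside these (Alb, Spp1, Msln, Upk3b, Dsp, Plec, Sqstm1, Fabp2, Cdx1, Reg3g and the untested markers) were named after their values were seen.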

Additional observations from a re-analysis of the deposited data

Results flagged for a closer look

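The ratio of Krt8 to Krt18 in KO replicate 2 lay far from those of the other KO libraries. On the log2 scale it was -0.18, against -0.73, -0.72 and -0.82 in KO replicates 1, 3 and 4 and -0.58 to -0.32 in WT libraries. This library had the highest Krt8 level, 104 CPM, and the lowest Krt18 level of the KO libraries, 117 CPM. It was 1 of 26 sets of 4 libraries looked at in this way, of which chance is expected to single out about 1 in 20. No genotype difference of a keratin was called as different between the series of animal numbers.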

How the results depend on the processing

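Krt7 was called higher under every alternative tested, with log2 fold changes from 1.96 to 2.40. The Krt19 call held under the scalings, filters, tools and covariates tried, and leaving out 1 library gave 1.64 to 2.43. Leaving out 1 library gave 0.04 to 0.23 for Krt8, 0.26 to 0.40 for Krt18 and 0.74 to 1.12 for Krt23, between 1 and 4 keratins higher and 0 lower, and between 222 and 1244 genes called in all, against 541. Without a low-count filter 827 genes were called and with DESeq2 1000, and Krt23 was then called at 0.97 by both. Without WT replicate 3, Krt18 at 0.40 and Krt23 at 1.08 were also called, and 4.75% of genes were called higher. Among the animals numbered 98 to 100, which give values and no test, Krt8 turned to -0.062, Krt18 was at 0.12 and Krt19 at 1.02. The log2 ratio differences there were 0.91 for Krt19/Krt18, 1.32 for Krt7/Krt19, 0.77 for Krt7/Epcam and -0.55 for Krt19/Epcam. Among the animals with 4-digit numbers they were -0.40 for Krt7/Krt19, -0.20 for Krt7/Epcam and 0.20 for Krt19/Epcam, signs opposite to those over 8 libraries. The cause was not tested. Leaving out 1 library gave 1.84 to 2.29 for Krt7/Krt8, 1.37 to 2.08 for Krt19/Krt18, -0.34 to -0.13 for Krt8/Krt18, -0.17 to 0.54 for Krt7/Krt19, -0.083 to 0.33 for Krt7/Epcam and -0.27 to 0.14 for Krt19/Epcam. Same-numbered replicates correlated at 0.025, 0.025, 0.122 and -0.147 in their deviations from the group means, and 0 of 4 correlated best with their own number. No pairing by number was seen in this way, but 4 libraries a group cannot exclude one. With the replicate number as a block 564 genes were called, and Krt7 at 2.25 and Krt19 at 2.02 were the 2 keratins called. In the paired test of the ratios no p can pass 0.05 with 4 pairs. The WT levels of Krt7 and Krt19 rest on 11 to 83 reads per library, which limits their precision.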

Other observations

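Krt80, like Krt19, was higher in the libraries of each group in which the summed mesothelium markers were higher, replicates 1 and 3. Krt19 was at 6.04 and 6.68 CPM in KO replicates 1 and 3, against 3.61 and 4.77 CPM in KO replicates 2 and 4, and at 1.39 and 2.74 CPM in WT replicates 1 and 3, against 0.863 and 0.610 CPM in WT replicates 2 and 4. Krt80 was at 0.581 and 0.350 CPM in KO replicates 1 and 3, against 0.104 and 0.113 CPM in KO replicates 2 and 4, and at 0.255 and 0.264 CPM in WT replicates 1 and 3, against 0.0411 and 0.111 CPM in WT replicates 2 and 4. The summed mesothelium markers were at 10.2 and 8.16 CPM in KO replicates 1 and 3, against 5.41 and 6.05 CPM in KO replicates 2 and 4. In WT libraries they were at 5.36 and 5.12 CPM in replicates 1 and 3, against 3.0003 and 4.88 CPM in replicates 2 and 4. This likeness was noticed after the values were seen, rests for Krt80 on 1 to 15 reads per library, and was not tested. Krt7, Krt8, Krt18 and Krt23 did not share it in both groups. Krt7 was lowest in replicate 1 of each group, at 2.21 CPM in KO and 0.401 CPM in WT. Krt8 was highest in KO replicate 2 and WT replicate 4, at 104 and 88.7 CPM. Gpm6a had the highest mean of the listed mesothelium markers in both groups and so weighs most in these sums.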
